A study of Mus musculus with 16 samples.

Results

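Transcripts of 10 genes of the activator protein 1 (AP-1) group and its partners in T cells were followed in T cells of mouse visceral fat. They were the Fos family genes Fos, Fosb, Fosl1 and Fosl2, the Jun family genes Jun, Junb and Jund, the Batf family genes Batf and Batf3, and Irf4, an interferon regulatory factor gene. The members were taken by symbol from the deposited table, and 10 of its 19540 genes matched. Of these, 9 passed the filter on low values (10 or more in at least 3 libraries) and were tested, while Batf3 did not.

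AP-1 is a dimer of basic leucine zipper (bZIP) proteins. Jun proteins pair with each other or with Fos proteins, and Fos proteins need a Jun partner to bind DNA. Fos, Fosb, Jun and Junb are immediate early genes, transcribed shortly after antigen receptor, growth factor or stress signals. Batf proteins lack the activating regions of Fos, pair with Jun proteins and bind DNA together with Irf4 at composite elements. In regulatory T cells (Treg, a CD4 T cell type marked by Foxp3 that keeps immune responses in check), Batf, Irf4 and Junb are known for their part in the effector programme, which Treg of visceral fat carry.

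RNA was sequenced from Treg and conventional T cells (Tconv) sorted from the visceral fat of C57BL/6JRcc mice aged 12 weeks. By their titles, 3 libraries were Treg WT and 4 Treg KO, and 4 were Tconv WT and 5 Tconv KO. KO mice lacked Hpgd, which encodes the enzyme that inactivates prostaglandin E2, in Treg through a Cre recombinase made with the Treg gene Foxp3, and WT mice were their controls, so the Hpgd gene of Tconv was not targeted in either genotype. The label of the mouse line was the same in all 16 samples (a floxed Hpgd allele with a Foxp3-YFP-Cre allele), so genotype rests on the titles, and whether the WT mice also carried an allele of that label is not stated. Per the series text there were 5 deleted and 4 WT animals, but which library came from which animal is not given, so p-values measure the spread between libraries, which may be technical. Sort markers are likewise not given. In such bulk samples, fewer cells of a type and less RNA per cell cannot be told apart.

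Libraries held 3.39 to 9.26 M reads, except Tconv KO 3 with 56.7 M. Deposited values are reads divided by a size factor (normalised reads) with 1 added, so a gene without reads is listed at 1 and 3 reads are worth between 1.38 and 7.09 depending on the library. Hpgd stood at 73.1, 56.0 and 4.31 in the Treg WT libraries and at 3.41, 2.54, 2.42 and 1.00 in the Treg KO libraries (log2 difference −3.13, exact 2-sided permutation test p = 0.0571 over 35 splits, the smallest that doubling the smaller tail allows; 0.0286 when p is the share of splits with at least as large an absolute difference). The library labelled Treg WT 3 lay near the KO libraries for Hpgd, at 3 reads. It keeps its label below, and calls that changed without it are named. Summed T cell markers (Cd3e, Cd3d, Cd3g, Cd4 and Foxp3) ranged from 13377 to 19961 over all libraries. Mast cell and neutrophil markers reached 14484 in Tconv WT 1, against at most 116 in each Treg library. Levels of single genes are given as deposited, with the added 1. Levels are means ± SD over these 3, 4, 4 and 5 libraries, and tests are limma fits over 14319 genes with Benjamini-Hochberg adjusted p.

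Per kilobase of exon, the members spanned a wide range of expression. Junb, which encodes a Jun protein that restrains as well as activates transcription, averaged 17374 normalised reads per kilobase (without the added 1) over the 16 libraries, above 99.95% of the 18271 genes with an annotated length. Fos, the founding partner of Jun, followed at 6991 (above 99.81%). Batf at 1187 (above 98.38%), Jun at 1125 (98.31%) and Jund at 977 (98.07%) stood close to each other. Fosb reached 591 and Fosl2 478 per kilobase. Irf4, whose protein has no bZIP and is recruited by Batf–Jun dimers, stood at 161 (above 87.91%). The lowest members were Fosl1 at 11.8 (above 49.55%) and Batf3 at 0.665 (above 13.41%). The exons of 4 members overlap exons of a gene on the other strand: Fosl1 with Ccdc85b over 1163 bases, Junb with Prdx2 over 173, Jun with the antisense gene Junos over 232 and Jund with the antisense gene Gm11175 over 877. The SmartSeq2 protocol named in the labels does not mark strand, so reads of these 4 and of their overlapping genes cannot be told apart there.

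The bZIP members were summed per kilobase in each library, at the RNA level, and this sum is called the pool. It leaves out the other bZIP factors, some of which can also pair with the members. The pool held 33730.2 ± 12019 normalised reads per kilobase in Treg WT and 37550 ± 9644 in Treg KO, against 24938 ± 1296 and 21726 ± 3685 in the Tconv groups of WT and KO mice. The lowest Treg library, Treg WT 2 at 21834, lay within the range of the Tconv libraries, 17170.5 to 27295. Junb made up 60.4% ± 4.20 of the pool in the 7 Treg libraries and 60.3% ± 5.37 in the 9 Tconv libraries. Fos made up 23.4% ± 4.08 and 25.0% ± 4.87. Batf, the member that directs dimers to Irf4 sites, held 3.53% ± 1.07 in Treg and 5.27% ± 2.00 in Tconv, and these ranges (2.34% to 4.93% and 2.69% to 8.61%) overlapped. The share of Jun was 4.31% ± 0.934 in Treg and 3.51% ± 0.691 in Tconv, and that of Jund 4.07% ± 1.44 and 2.58% ± 0.663. The shares were not tested.

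**Figure D1:**
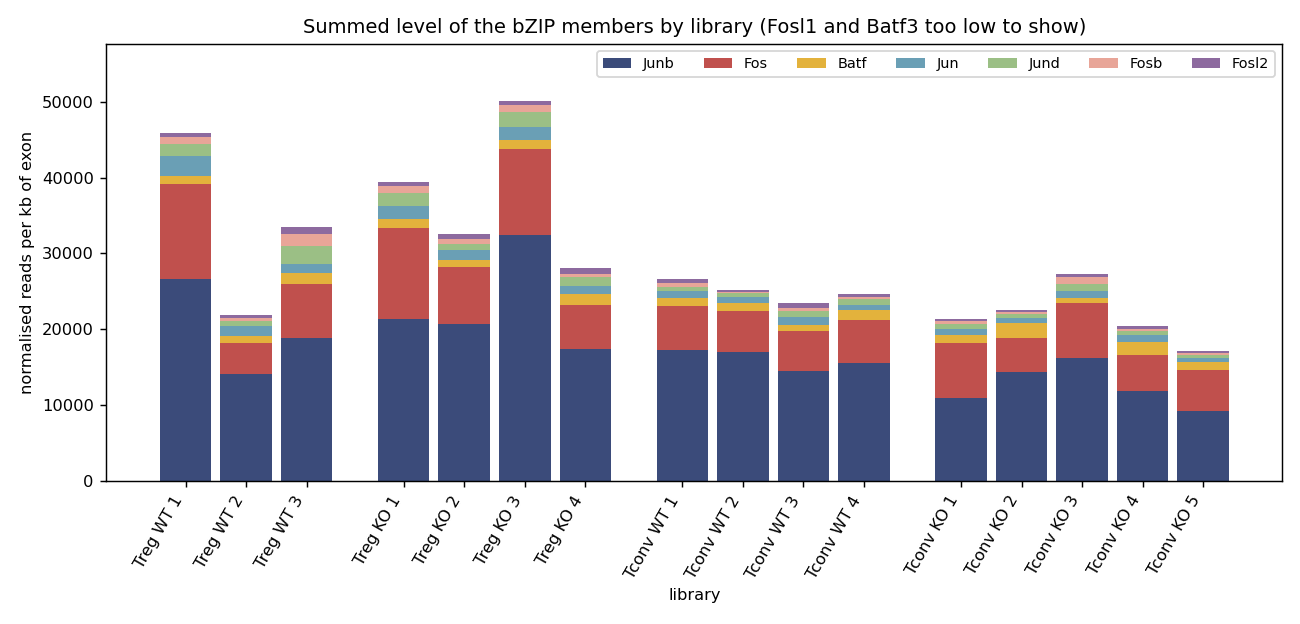
Stacked bars of the bZIP members in each of 16 libraries, on an axis of normalised reads per kilobase of exon; each colour is 1 gene and the bar height is the summed pool. Junb and Fos fill most of every bar, and the tallest bar is Treg KO 3 at 50199 while the shortest is Tconv KO 5 at 17170.5.

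Fos lies on chromosome 12 (mm10, 85473890 to 85477273, plus strand, 4 exons) and Jun on chromosome 4 (95049034 to 95052222, minus strand, 1 exon). Both are shown with their promoters because they form the classical AP-1 dimer and no exon reaches into either window. The 250 bases before each start, from RefSeq on GRCm38.p6, read 5′ to 3′ on the strand of the gene, with capitals for the motifs found.

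Fos, chr12:85473640-85473889, plus strand, capitals for a TATA box: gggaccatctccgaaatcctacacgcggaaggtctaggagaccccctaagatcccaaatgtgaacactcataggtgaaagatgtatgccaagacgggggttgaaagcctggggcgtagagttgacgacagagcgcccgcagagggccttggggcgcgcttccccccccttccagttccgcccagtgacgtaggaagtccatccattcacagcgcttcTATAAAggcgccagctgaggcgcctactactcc

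Jun, chr4:95052223-95052472, minus strand, capitals for a CRE-like site: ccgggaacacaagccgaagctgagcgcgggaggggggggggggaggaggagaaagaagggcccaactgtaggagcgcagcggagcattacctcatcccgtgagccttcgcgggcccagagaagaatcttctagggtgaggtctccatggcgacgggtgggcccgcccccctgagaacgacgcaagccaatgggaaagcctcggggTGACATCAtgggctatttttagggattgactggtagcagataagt

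The Fos window holds TATAAA with its first base 33 bases before the start, a word found on the gene strand in 7.592% of 32851 promoter windows of this length. The Jun window holds TGACATCA, a match of TGACNTCA, with its first base 45 bases before the start, and 7.488% of windows hold that word on either strand. The AP-1 word TGANTCA was found on either strand in 6.749% of windows and in 0 of the 9 members with a window. Windows end before the RefSeq start, which can differ from the gene start given here. Those of Fosb, Fosl2, Batf, Batf3 and Irf4 overlap exons of their own gene. The Jund window ends at 70697738, ahead of the gene start at 70698949. TGACNTCA was found in 1 of the 9 members with a window and TATAAA in 2, Fos and Irf4. No match of one of these words contains a match of another. A match is a description of letters in the window only.

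The first comparison asked whether the members stood at other levels in Treg than in Tconv. In WT mice 0 of the 9 tested members passed (adjusted p under 0.05), against 4.18% of all genes tested, though all 9 differences were above 0, as were 49.5% over all genes. Jun alone had groups that did not overlap, as had 5.87% of all genes with Treg higher, and at an unadjusted p under 0.05 stood 5 members (Fosb, Fosl1, Jun, Jund and Irf4) and 16.3% of all genes. The median difference of the 9 was 0.85 on the log2 scale, against 0.00 over all genes. In KO mice 4 of 9 were higher in Treg, Fosl2, Jun, Junb and Jund, and 0 were lower, against 6.81% of all genes called and 4.16% called higher. At an unadjusted p under 0.05 stood 8 members, all but Batf, and 18.7% of all genes. Groups did not overlap for 3 of the 9 (Fosl2, Jun and Junb), as for 10.7% of all genes (6% with Treg higher). Of the 9 differences, 8 were above 0, as were 52.3% over all genes. The median was 0.92, against 0.04 over all genes. A contrast of the mean of both Treg groups with the mean of both Tconv groups, added after these results were seen, called 7 of 9 higher and 0 lower, against 11.8% of all genes called and 6.61% called higher, and all 9 differences were above 0, as were 50.6% over all genes. Fos and Batf were the members without a call. The comparisons share libraries, so their results are given side by side and are not independent of each other.

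**Figure D2:**
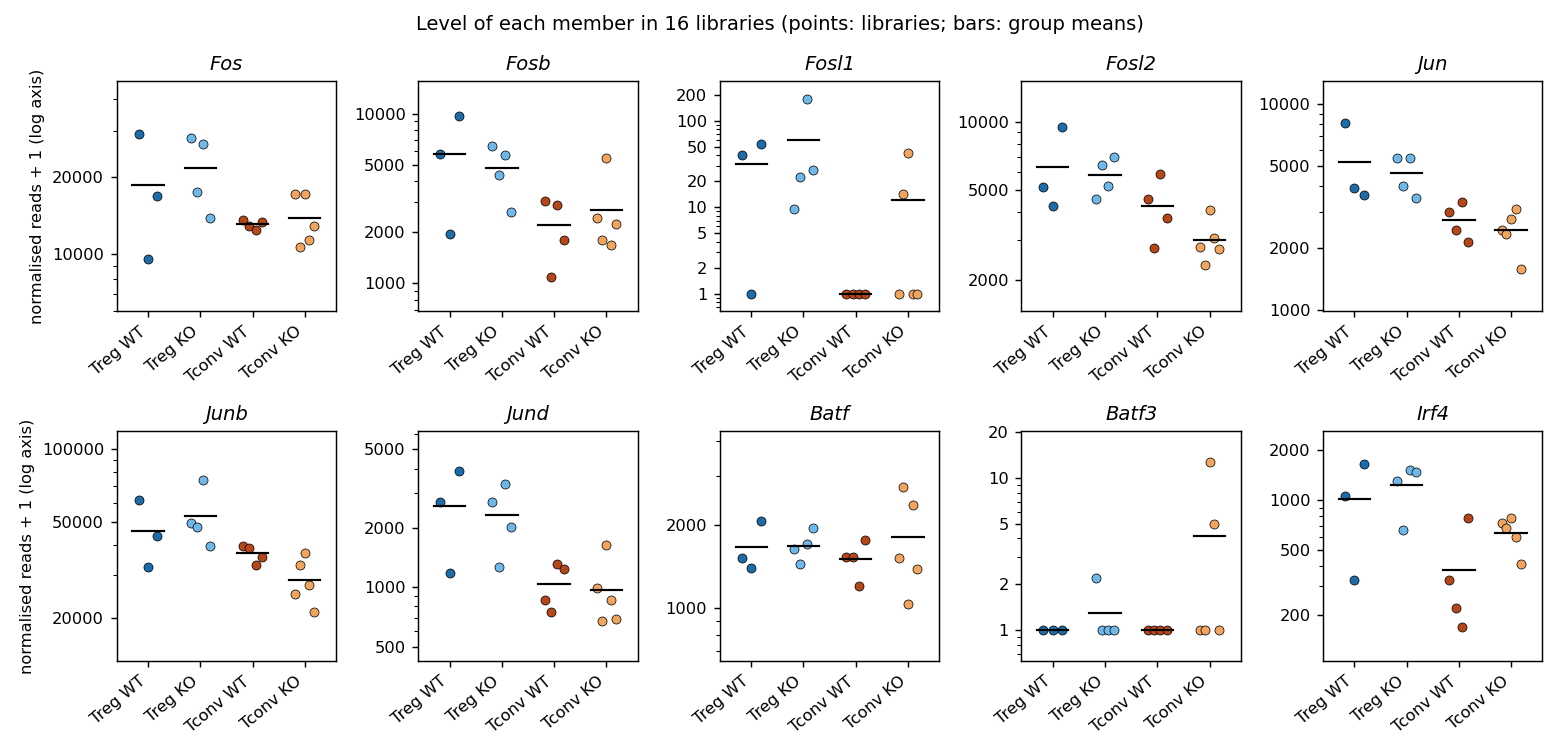
Normalised reads plus 1 on a log axis for each member, with 1 point per library in the 4 groups and a bar at the group mean. For Jun every Treg library lies above every Tconv library, whereas the 4 groups of Batf overlap.

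In the Jun family, with which Fos and Batf proteins pair, Jun separated the cell types in every library. It stood at 8105, 3929 and 3631 in Treg WT and at 5504, 4009, 5508 and 3499.9 in Treg KO. In Tconv it stood at 3009.8, 2467, 3339 and 2155 in WT and 2448, 2346, 2784, 3099 and 1582 in KO. The lowest Treg library, Treg KO 4, lay above the highest Tconv library, Tconv WT 3, so the 7 and 9 values did not overlap, as was so for 3.12% of all genes tested. The log2 difference was 0.85 (SE 0.27, adjusted p = 0.0923) in WT, 0.92 (SE 0.24, adjusted p = 0.0215) in KO and 0.89 (SE 0.18, adjusted p = 0.00233) for the mean of both. The KO call was lost under quantile scaling and with the replicate number as a block. It was also lost without Treg KO 1, Treg KO 3 or Tconv KO 5 (adjusted p from 0.0548 to 0.0973 over all of these). The call for the mean of both held under every alternative tried (0.00139 to 0.0140).

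Jund encodes the Jun protein that resting cells keep at a steady level (chromosome 8, 70698949 to 70700616, plus strand, 1 exon). It stood at 2696, 1184 and 3889 in Treg WT and 2706, 1264, 3324 and 2019 in Treg KO. Tconv libraries stood at 861, 754, 1313 and 1231 in WT and 992, 677, 1637, 866 and 689 in KO. Treg WT 2 and Treg KO 2 were the low Treg libraries and fell among the Tconv values, and Tconv KO 3 was the high Tconv library. Treg stood above Tconv by a log2 difference of 1.19 (SE 0.39, adjusted p = 0.0943) in WT, 1.25 (SE 0.34, adjusted p = 0.0277) in KO and 1.22 (SE 0.26, adjusted p = 0.00283) for the mean of both, and the last held under every alternative tried (0.000265 to 0.0140). The WT difference passed with quality weights (0.0396), with the replicate block (0.0106) or without Treg WT 2 (0.0124). The KO call was lost by voom and without any 1 of Treg KO 1, 3 and 4 and Tconv KO 2, 4 and 5 (0.0557 to 0.122).

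Junb (chromosome 8, 84974484 to 84978718, minus strand) was the most abundant member in every library of the pool. Its levels were 61357, 32408 and 43431.5 in Treg WT and 49161, 47710.5, 74458 and 39817 in Treg KO. They were 39777, 38961, 33185 and 35835 in Tconv WT and 25096.5, 32987, 37155, 27188 and 21145 in Tconv KO. In KO mice each Treg library lay above each Tconv library, as did 6% of all genes tested, whereas Treg WT 2 lay below all 4 Tconv WT libraries. The log2 difference was 0.26 (SE 0.22, adjusted p = 0.642) in WT and 0.87 (SE 0.20, adjusted p = 0.00844) in KO. The mean of both was 0.56 (SE 0.15, adjusted p = 0.0160). Quantile scaling ended the KO call and that for the mean of both (0.127 and 0.176), as did leaving out Treg KO 3 for the former (0.0507) and Treg WT 1 for the latter (0.0619).

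Of the Fos family, Fosl2 encodes a Fos protein without the strong activating region of Fos (chromosome 5, 32135801 to 32157842, plus strand, 4 exons). It stood at 5140.0, 4247 and 9463 in Treg WT and 4548, 6468, 5220.3 and 7013 in Treg KO. Tconv WT libraries stood at 4546, 2763, 5894 and 3754, and Tconv KO libraries at 2793, 2319, 4077, 3050.0 and 2733. The KO groups did not overlap, as was so for 6% of all genes tested with Treg higher. In WT both Treg WT 1 and Treg WT 2 lay within the Tconv range. On the log2 scale Treg minus Tconv came to 0.53 (SE 0.27, adjusted p = 0.345) in WT, 0.96 (SE 0.24, adjusted p = 0.0167) in KO and 0.75 (SE 0.18, adjusted p = 0.00889) for the mean of both. Quantile scaling ended both calls (0.0720 in KO, 0.0540 for the mean), and leaving out Treg KO 4 ended the KO call (0.0688).

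Fosb, an immediate early gene whose protein resembles Fos, lies on chromosome 7 (19302696 to 19310051, minus strand, 5 exons). Its levels were 5746, 1953 and 9718 in Treg WT and 6438, 4361, 5723 and 2646 in Treg KO. In Tconv they were 3053, 1095, 2883 and 1799 in WT and 2434, 1799, 5441, 1681 and 2230.0 in KO. Treg WT 2 was low and Tconv KO 3 high, and the groups overlapped in both genotypes. Treg minus Tconv was 1.23 on the log2 scale (SE 0.48, adjusted p = 0.185) in WT, 0.89 (SE 0.42, adjusted p = 0.261) in KO and 1.06 (SE 0.32, adjusted p = 0.0352) for the mean of both. The WT difference passed without Treg WT 2 (0.0202) or with the replicate block (0.0288), and the KO difference passed with that block (0.0458). The call for the mean of both was lost in 13 of the alternatives (0.0529 to 0.124), by quantile scaling, by voom and without any 1 of Treg WT 1 and 3, Treg KO 1, 2 and 3, Tconv WT 2 and 4 and Tconv KO 1, 2, 4 and 5.

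Fos itself stood at 29405, 9572 and 16747 in Treg WT and 28301.5, 17404, 26745 and 13836 in Treg KO. Tconv libraries stood at 13558, 12859, 12382 and 13344.5 in WT and 17160.2, 10630.5, 17034, 11309 and 12813 in KO. The Tconv WT values lay within a narrow band, whereas Treg WT 2 was the lowest and Treg WT 1 the highest of all 16 libraries. The log2 difference was 0.36 (SE 0.29, adjusted p = 0.617) in WT, 0.61 (SE 0.26, adjusted p = 0.195) in KO and 0.49 (SE 0.20, adjusted p = 0.123) for the mean of both, so none passed. Without Treg WT 2 the mean of both passed (0.0117).

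Fosl1 is a Fos gene that T cells express little (chromosome 19, 5447547 to 5455946, plus strand, 4 exons). It had 43, 0 and 48 reads in Treg WT, and 7, 14, 127 and 27 in Treg KO. It had no reads in the 4 Tconv WT libraries, and in Tconv KO it had reads in Tconv KO 2 (17) and Tconv KO 3 (329, the deepest library). In normalised reads plus 1, these values were 40.2, 1.00 and 53.9 in Treg WT and 9.44, 22.5, 181 and 27.3 in Treg KO, and 14.2 and 42.7 in the Tconv KO libraries with reads. Thus 6 of 7 Treg and 2 of 9 Tconv libraries held reads. The log2 difference for the mean of both was 2.82 (SE 0.85, adjusted p = 0.0355), a fitted value that is no bound, since 7 Tconv libraries had none. It was 3.05 in WT (SE 1.28, adjusted p = 0.223) and 2.59 in KO (SE 1.12, 0.210), and neither passed. In WT it passed without Treg WT 2, the Treg library without reads (4.57, adjusted p = 0.0468). The call for the mean was lost by voom (0.126) and without any 1 of Treg WT 1 and 3, Treg KO 3 and 4, Tconv WT 1, 2, 3 and 4 and Tconv KO 1, 4 and 5 (0.0511 to 0.109).

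Irf4, the partner of Batf, lies on chromosome 13 (30749226 to 30766976, plus strand, 9 exons). It stood at 1056, 329.9 and 1645 in Treg WT and 1310.1, 657, 1515 and 1482 in Treg KO. Tconv WT libraries stood at 329.8, 220.2, 169 and 781 and Tconv KO libraries at 721, 673, 777, 600.1 and 407. Treg WT 2 and Treg KO 2 were low, and Tconv WT 4 was high for its group. Log2 differences of Irf4 were 1.41 (SE 0.50, adjusted p = 0.135) in WT, 0.92 (SE 0.44, adjusted p = 0.261) in KO and 1.17 (SE 0.33, adjusted p = 0.0257) for the mean of both. The WT difference passed without Treg WT 2 (0.0140) or Tconv WT 4 (0.0351), and with the replicate block (0.0349). The call for the mean of both was lost by voom and without any 1 of Treg WT 1 and 3, Treg KO 3 and 4 and Tconv WT 2 and 3 (0.0508 to 0.0941), and when Tconv KO 3, Tconv WT 1 and Tconv WT 3 were all left out (0.104).

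Batf, which encodes the short bZIP protein of effector T cells, lies on chromosome 12 (85686669 to 85709087, plus strand, 3 exons). It stood at 1509.8, 1391 and 2061 in Treg WT and 1638, 1441, 1697 and 1945 in Treg KO. Tconv libraries stood at 1531, 1529, 1199.6 and 1753 in WT and 1519.9, 2722, 1032, 2358 and 1389 in KO. The 2 highest and the 2 lowest values were all in Tconv libraries. The log2 difference was 0.13 in WT (95% interval −0.44 to 0.70), −0.02 in KO (−0.52 to 0.48) and 0.05 for the mean of both (−0.32 to 0.43, adjusted p = 0.903). The last interval leaves room for a level higher by up to 0.43 in Treg or by up to 0.32 in Tconv, and the sign turned under quantile scaling (−0.07). Batf3, a related gene best known in dendritic cells (chromosome 1, 191097847 to 191108945, plus strand, 4 exons), had 1 read in Treg KO 1, 93 in Tconv KO 3 and 5 in Tconv KO 4 and none in the other 13 libraries. Dendritic cell markers summed to between 56.9 and 342 normalised reads over all libraries, with 1 of the 8 without reads in each group.

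**Figure D3:**
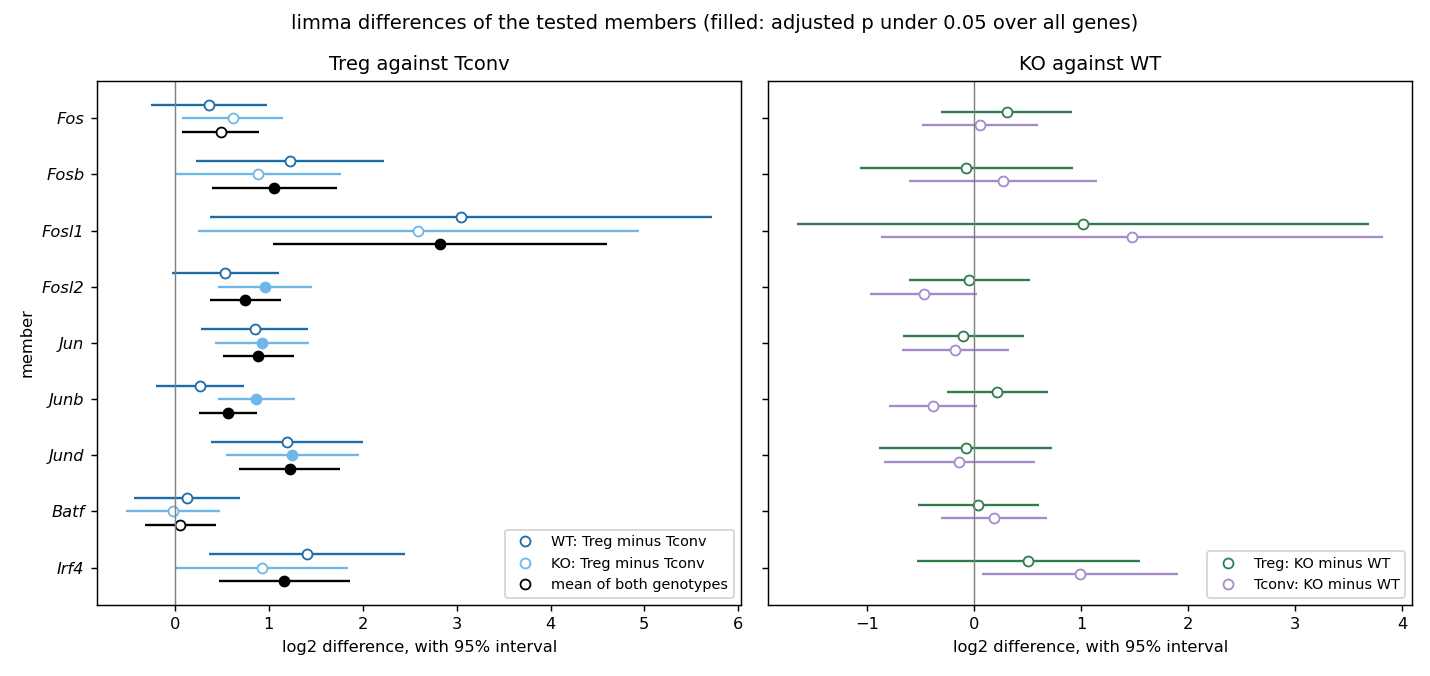
Log2 differences from limma with 95% intervals for the 9 tested members, Treg minus Tconv on the left and KO minus WT on the right, with filled points where the adjusted p was under 0.05. In the left panel 7 black points for the mean of both genotypes are filled, and in the right panel none is.

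The second question was whether loss of Hpgd in Treg went with other levels of the members. In Treg 0 of 9 members passed between KO and WT, against 0.021% of all genes (3 genes), and 0 had an unadjusted p under 0.05 in limma, as had 6.22% of all genes, and voom also called 0. In all 9 the groups overlapped, whereas 6.01% of all genes had groups that did not. The differences ran from −0.10 for Jun to 1.02 for Fosl1, with 0.50 for Irf4 (95% interval −0.54 to 1.55), 0.30 for Fos (−0.31 to 0.92), 0.22 for Junb (−0.25 to 0.69) and 0.04 for Batf (−0.53 to 0.60). Treg WT 2 was the lowest Treg WT library for 8 of the 9, and without it the difference turned to −0.10 for Fos, −0.51 for Fosl1, −0.01 for Junb, −0.08 for Batf and −0.16 for Irf4.

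In Tconv, whose Hpgd gene was not targeted, 0 of 9 members passed in limma, against 0% of all genes, and voom called 0. Irf4 alone had an unadjusted p under 0.05, as had 5.45% of all genes: its mean was 375 ± 279 in WT and 636 ± 143 in KO (log2 difference 0.98, 95% interval 0.07 to 1.90, adjusted p = 0.897). The groups overlapped, since Tconv WT 4 at 781 lay above all 5 KO libraries. Fosl2 stood at 4239 ± 1322 and 2994 ± 659 (log2 difference −0.47, adjusted p = 0.913). Junb stood at 36939 ± 3025 and 28714 ± 6368 (−0.39, adjusted p = 0.917). The remaining members differed by −0.18 (Jun) to 1.48 (Fosl1).

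Whether the deletion moved the members differently in Treg and in Tconv was tested as the difference of both effects, and 0 of 9 passed in limma, against 0% of all genes, with 5.22% at an unadjusted p under 0.05 and 0 of the 9 among them, and voom called 0. Junb had the smallest p, at a difference of 0.60 (SE 0.30, adjusted p = 0.928), from 0.22 in Treg and −0.39 in Tconv.

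Relations between members were then taken across the libraries of 1 cell type, 7 Treg and 9 Tconv. In all 14 were computed (7 pairs in each cell type, Batf with Batf3 left out because Batf3 had reads in 3 libraries), on log2 values and with exact 2-sided permutation p-values. Batf and Irf4 correlated across Treg libraries, with Spearman's rho = 0.964 (exact p = 0.00278, adjusted p = 0.0389) and Pearson's r = 0.817 (exact p = 0.000794, adjusted p = 0.0111), and r was 0.924 without Treg WT 3 and Treg KO 4. In the 9 Tconv libraries the pair gave rho = 0.167 and r = 0.324 (exact adjusted p = 0.832 and 0.623), and r = 0.0870 without Tconv KO 2 and 4. Treg WT 2 and Treg KO 2 were the lowest Treg libraries for both genes, and Treg WT 3 the highest. The difference between the cell types' correlations was not tested.

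Fos and Junb gave r = 0.878 (exact p = 0.00714, adjusted p = 0.0333) and rho = 0.893 (exact p = 0.0123, adjusted p = 0.0574) in Treg, with r = 0.746 without Treg WT 1 and 2. In Tconv r was 0.0191 and rho 0.283 (exact adjusted p = 0.982 and 0.648), and r was 0.264 without Tconv KO 1 and 3. Fos and Jun gave r = 0.803 and rho = 0.857 in Treg (exact adjusted p = 0.0861 and 0.0833; 0.985 without Treg WT 1 and 2) and r = 0.00189 in Tconv. Fos followed Hspa1a, a stress-induced heat shock gene, in Treg as well, at r = 0.784 (exact p = 0.00278, adjusted p = 0.0194) and rho = 0.929 (exact p = 0.00675, adjusted p = 0.0472), with r = 0.770 without Treg WT 1 and 2, against r = 0.219 in Tconv. Fos with Fosb, Fos with Egr1 and Jun with Jund did not pass in either cell type. These p-values double the smaller tail, a choice settled after the values were seen. When p was instead the share of permutations with at least as large an absolute r, 0 of the 3 calls on r passed (adjusted p = 0.126, 0.108 and 0.126 for Batf with Irf4, Fos with Junb and Fos with Hspa1a), while the 2 calls on rho were the same. The 7 libraries hold both genotypes, 3 and 4 libraries, too few for a correlation within each.

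**Figure D4:**
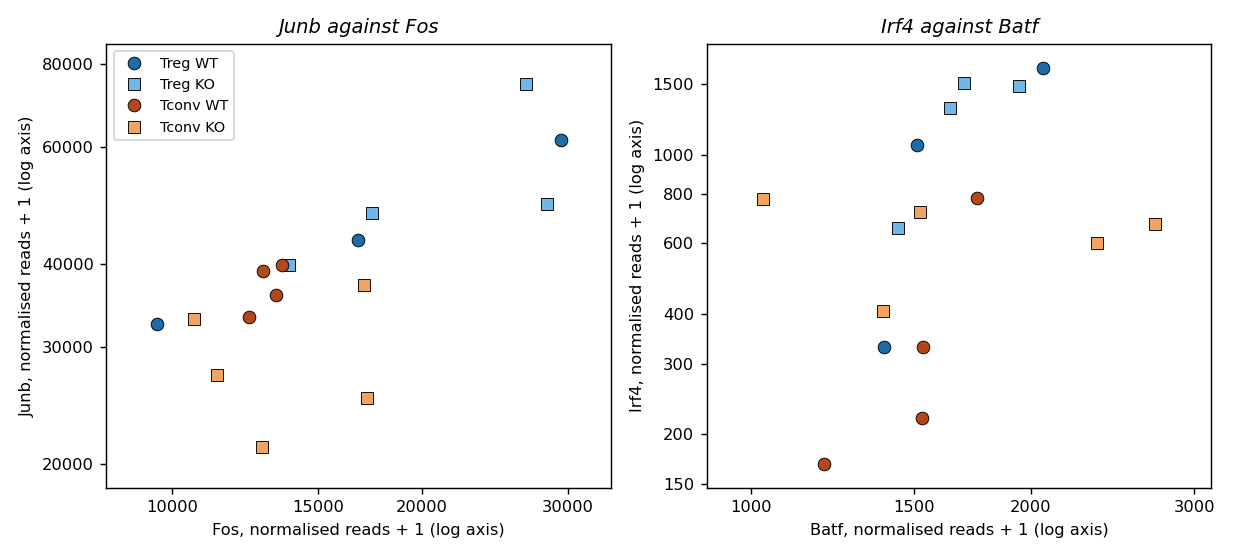
Normalised reads plus 1 of 2 pairs on log axes, Junb against Fos on the left and Irf4 against Batf on the right, with 1 point per library (circles WT, squares KO). The 7 blue Treg points rise together in both panels (r = 0.878 and 0.817), and the 9 brown and orange Tconv points do not (0.0191 and 0.324).

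The genes whose pattern over the 16 libraries came nearest to a member were found by the root mean square difference of centred log2 values among 13243 genes. Nearest to Jun were Ppp1r15a (0.248), a stress-induced phosphatase regulator, Tgif1 (0.262) and Dusp1 (0.282), an immediate early phosphatase of MAP kinases. Nearest to Jund were Id2 (0.314), S100a6 (0.317) and the immediate early nuclear receptor Nr4a1 (0.326). Fosb came nearest to Plod2 (0.390), the protease Furin (0.395) and Klf4 (0.407), and Fos to Acadvl (0.251), Map4 (0.262) and Rcsd1 (0.275). Junb came nearest to Grcc10 (0.241), and Irf4 to Nrros (0.538). Among the members, Jun and Junb were nearest to each other (0.328), as were Fosb and Jund (0.454). Batf lay nearest to Phb2 (0.219), and 3043 genes lay nearer to it than its nearest member, Junb (0.559).

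The list of other bZIP factors, which can pair with the members or compete for their sites, had 17 members in the table and 16 tested. For the mean of both genotypes 3 of 16 were higher in Treg and 1 lower (median 0.14, against 0.01 over all genes), and 0 and 0 in WT and 2 and 1 in KO. Over all genes 11.8% were called for the mean of both (6.61% higher), 4.18% in WT and 6.81% in KO. Crem, which encodes cAMP-responsive factors, stood at 9331 ± 2269 and 9184 ± 2489 in Treg of WT and KO mice and at 4949 ± 1829 and 2945 ± 879 in Tconv (log2 difference 1.31, adjusted p = 8.82e-05). Atf3, a stress-induced partner of Jun, was higher by 2.24 (adjusted p = 0.00520) and Nfil3 by 0.92 (0.0108). Nfe2l2, the regulator of antioxidant genes, was lower, at 404 ± 116 and 156 ± 64.0 in Treg of WT and KO mice and 442 ± 131 and 509 ± 83.5 in Tconv (−0.95, adjusted p = 0.0146). Of the other IRF factors, 2 of 8 were higher, Irf5 (2.01, adjusted p = 0.000356) and Irf8 (1.61, 0.00229). Irf8, like Irf4, can bind with Batf. Irf7 (−0.96, 0.00263), an interferon-induced factor, was the 1 that was lower. In WT 0 of 8 passed, and in KO the counts were 2 and 1.

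The 19 kinases and factors upstream of AP-1 had a median of −0.02 for the mean of both. Of the 19, 2 were higher and 0 lower, against 11.8% of all genes called and 6.61% called higher. These were Map2k3, a kinase of the p38 branch, at 2550.2 ± 539.6 in Treg WT and 898 ± 238 in Tconv WT (1.22, adjusted p = 4.35e-05), and Map3k8, which acts ahead of the ERK branch (1.51, 0.00110). Of 9 NFAT and REL factors, which act beside AP-1 downstream of the antigen receptor, 5 were higher and 2 lower. The higher ones were the NF-kB genes Rel (1.40, adjusted p = 1.19e-05), Rela (0.76), Relb (1.42), Nfkb1 (1.57) and Nfkb2 (1.39), and the lower ones Nfatc1 (−0.66, 0.00355) and Nfatc2 (−0.83, 0.0246). In WT these counts were 4 and 1, and in KO 5 and 1. The shares of all genes called were 4.18% in WT and 6.81% in KO. Of 20 effector Treg genes, many of which are known to depend on Batf and Irf4, 17 were higher and 1 lower for the mean of both (13 and 0 in WT, 15 and 0 in KO), with a median of 2.38. Il10 stood at 13572 ± 9195 in Treg WT and 429 ± 317 in Tconv WT. As Treg and Tconv were separated by sorting, that list is also a check of the sort. Between KO and WT, 0 members of any of these lists passed in Treg or in Tconv, against 0.021% of all genes (3 genes) in Treg and 0% in Tconv.

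Of the other immediate early genes, 12 of 22 were higher in Treg and 4 lower for the mean of both (median 0.61), with 4 and 2 in WT and 9 and 4 in KO. Over all genes 11.8% were called for the mean of both (6.61% higher), 4.18% in WT and 6.81% in KO. Zfp36l1, an RNA decay factor, stood at 9743 ± 4485 in Treg WT and 2787 ± 609.6 in Tconv WT (2.07, adjusted p = 2.20e-07), Dusp1 was higher by 1.27 (6.03e-06), and Nfkbia, the inhibitor of NF-kB, by 2.32 (4.58e-05). Egr2, an antigen receptor target, was lower, at 19.8 ± 20.6 and 191 ± 78.6 (−3.18, adjusted p = 0.000311). The summed level of these 22 genes ran from 135299 to 285176 in Treg WT, 171409 to 288252 in Treg KO, 92019 to 131987 in Tconv WT and 88014 to 150842 in Tconv KO. Centred on the mean over the 16 libraries, the median member stood at 0.89, −0.23 and 1.14 in the Treg WT libraries, at 0.73, 0.28, 0.89 and 0.26 in Treg KO and between −0.67 and 0.14 in Tconv (log2). The median of the other immediate early genes stood at 0.44, −0.29 and 0.40 in Treg WT, at 0.46, 0.02, 0.67 and 0.59 in Treg KO and between −0.57 and 0.34 in Tconv. Treg WT 2 was the only Treg library below 0 for both lists, and Tconv KO 3 the highest Tconv library for both. Of 11 heat shock genes, 0 were higher and 3 lower (Hspe1, Hspd1 and Hsph1) for the mean of both, with 0 and 0 in WT and 0 and 1 in KO. Of 5 markers of type 2 innate lymphoid cells, 2 were higher and 0 lower for the mean of both (Calca and Il9r), with a median of 0.52. The counts were 1 and 0 in WT (median −0.02) and 2 and 0 in KO (median 1.78). Il5, a marker that did not pass, averaged 34.7 ± 34.2 and 156 ± 31.1 in Treg of WT and KO mice, against 257 ± 304 and 216 ± 406 in Tconv of WT and KO mice. These Tconv means rest on Tconv WT 1 (599.7), Tconv WT 3 (425.7) and Tconv KO 3 (940). The other Tconv libraries stood at 52.4 or below. The 5 markers had sums of 685 to 3390 in Treg WT, 1425 to 1844 in Treg KO, 41.7 to 1343 in Tconv WT and 62.2 to 1477 in Tconv KO, and all 5 had reads in every group. CD8 T and NK cell markers ran from 69.5 to 558 in Treg and from 308 to 1453 in Tconv. The part of these in the differences of the members was not tested.

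**Figure D5:**
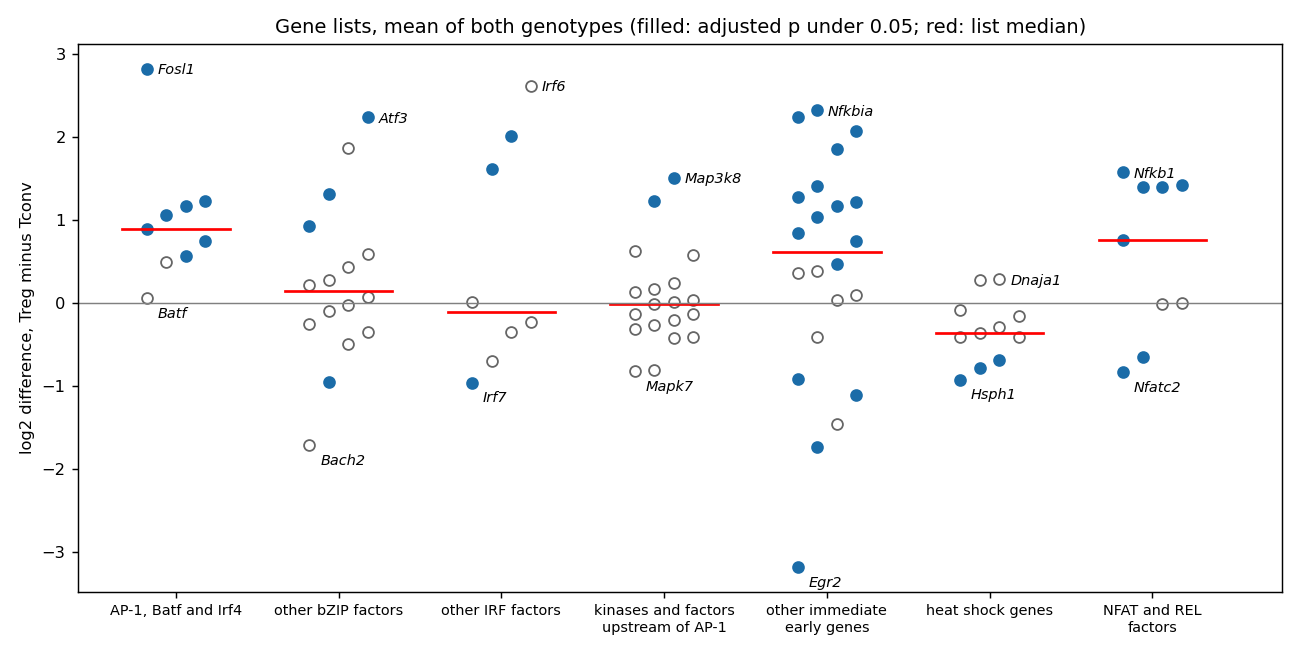
Log2 difference of Treg minus Tconv for the mean of both genotypes, with 1 point per tested gene in 7 lists, filled where the adjusted p was under 0.05, and a red line at the list median. The members have a median of 0.89 and 7 filled points above 0; the kinases have a median of −0.02, and the immediate early genes hold filled points on both sides of 0.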

How the data were processed

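The members and gene lists were chosen with earlier results of these data known. The deposited signal was found from its values to be reads per gene over a library's size factor, with 1 added: undoing this gave whole reads (within 0.1) for 100% of values below 1000 reads. Tools in the submitters' processing notes are DESeq2, Partek 6.6, kallisto 0.44, CASAVA 1.8 and R 3.3.1, with mm10 as the build and no roles given. Fat was digested with collagenase and DNase before sorting, per the labels' protocols.

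Values were taken as log2(value + 1), so differences of low genes are understated. One limma 3.58.1 model (R 4.3.3, mean-variance trend, group means, all 16 libraries sharing 1 spread) gave 2-sided p-values for 14319 genes (a value of 10 reached in 3 libraries or more), adjusted by Benjamini-Hochberg per comparison, with a threshold of 0.05. The contrast of the mean of both genotypes, voom on whole reads, and the fit that leaves out Tconv KO 3, Tconv WT 1 and Tconv WT 3, which stand apart in depth or in markers of other cells, were added after results were seen. Negative binomial count models were not run.

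Positions and lengths came from GENCODE M21 (mm10), where 93.51% of symbols and all 10 members matched. Named genes were the members, Hpgd, Foxp3, the smallest p-values of each list (up to 4 in WT Treg against Tconv and up to 2 in each other comparison), the 3 most abundant of each marker list and the 3 nearest patterns per member. Floors of 3 reads reflect counting error alone, as PCR copies were not told apart from molecules.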

Additional observations from a re-analysis of the deposited data

Results flagged for a closer look

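In 3 of the 28 groups of members examined, 1 library lay far from the others of its group on the unlogged values. For normally spread values chance sets about 1 in 20 such groups apart. That rate does not hold for groups in which most libraries have no reads, so the 3 are not weighed against it. Fosb stood at 5441 in Tconv KO 3, the deepest library, above the other 4 Tconv KO libraries at 1681 to 2434. Fosl1 stood at 180.8 in Treg KO 3 (127 reads), above 9.44 to 27.3 in the other 3 Treg KO libraries. Batf3 stood at 2.21 in Treg KO 1 from 1 read, while the other 3 had none, so any read there would have been flagged.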

How the results depend on the processing

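Jun and Jund stayed higher in Treg for the mean of both genotypes under every alternative tried. The number of members called in WT was 0. It was 3 under the replicate block (Fosb 0.0288, Jund 0.0106 and Irf4 0.0349) and 1 with quality weights. Over libraries left out it ran from 0 to 4 (4 without Treg WT 2 and 1 without Tconv WT 4). Of the 14319 genes tested, 599 were called in WT, 507 with the block and 540 with quality weights. Without Treg WT 2 there were 664 such genes, and without Tconv WT 4 there were 418. In KO it was 4, with 1 under quantile scaling and 1 to 4 over libraries left out (1 without Treg KO 3, and 2 without Treg KO 1, Treg KO 4 or Tconv KO 5). For the mean of both, 7 members were called, with 4 under quantile scaling, 4 by voom and 3 to 8 over libraries left out. There were 3 without Treg WT 1, and 4 without Treg WT 3, Treg KO 3 or Tconv WT 2. Calls over all genes were 1684, with 1697 under quantile scaling and 1458 by voom. They were 1485, 1417, 1442 and 1520 without Treg WT 1, Treg WT 3, Treg KO 3 and Tconv WT 2. The cause was not tested. Between KO and WT, and for the difference of the effects, 0 members were called under every alternative. Of the correlations, 3 passed on r with a doubled tail and 0 with absolute size.

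Some differences that were not called turned sign. Batf turned to −0.0067 in WT and −0.10 for the mean of both when Tconv KO 3, Tconv WT 1 and Tconv WT 3 were left out, to −0.072 for the mean under quantile scaling, to 0.11 in KO by voom and to −0.059 between Treg KO and WT with the replicate block. Fosb turned to 0.10 between Treg KO and WT with that block, and Fos to −0.039 between Tconv KO and WT without those 3 libraries. Fos with Jun in Tconv gave r = −0.146 without Tconv KO 1 and 3, and 0.00189 with all. With 1 library left out at a time, these differences spanned both signs. Fos ran from −0.041 to 0.77 and Batf from −0.040 to 0.24 between Treg and Tconv in WT. Batf ran from −0.20 to 0.15 between Treg and Tconv in KO. Fosb ran from −0.72 to 0.44, Jun from −0.31 to 0.27, Jund from −0.56 to 0.29, Batf from −0.078 to 0.21, Fos from −0.10 to 0.71, Fosl1 from −0.51 to 1.88, Junb from −0.0076 to 0.45, Irf4 from −0.16 to 1.00 and Fosl2 from −0.28 to 0.29 between Treg KO and WT. Fosb ran from −0.032 to 0.46 and Fos from −0.034 to 0.14 between Tconv KO and WT. Batf ran from −0.035 to 0.14 for the mean of both. Hpgd between Treg KO and WT, in contrast, stayed below 0, from −4.34 to −2.44.

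Whether replicate numbers mark paired libraries is not given, and the main fit did not use them. Deviations of same-numbered Treg and Tconv libraries correlated weakly, at r from 0.0227 to 0.0787. Even so, each Treg library correlated best with its own number in 7 of 7 pairs. Those of WT and KO correlated at −0.0222 to 0.0744 (5 of 7). These values do not settle whether the numbers pair the libraries. With the block in the fit, Jun in KO was lost (0.0548) and Fosb in KO passed (0.0458). Negative binomial count models and their scalings were not run, while voom was run on the whole reads. At 3 to 5 libraries a group, intervals on the log2 scale are wide, and at these depths levels of Fosl1 and Batf3 in libraries without reads are limited only by the floor of 3 reads.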
